A study of Mus musculus with 64 samples.

Results

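At E10.5 (E, embryonic day) the inner ear epithelium of the mouse embryo was divided for the first time in this series, and the ventral cochlear part was measured separately from the dorsal vestibular part. The comparison rests on 4 of the 64 arrays of the series, chosen by their labelled tissue and stage: 2 arrays of cochlea and 2 of vestibular organ, each hybridised with RNA of 1 pool. The cochlear pools held 10 and 12 tissues and the vestibular pools 11 and 12. All came from CBA/J embryos of timed pregnancies, with no mutant or treated group, and the duplicates of a stage came from different litters. The epithelium had been loosened from the surrounding tissue in dispase for 8 to 10 minutes, and the vestibular part was taken without the endolymphatic duct. At E10 and before the whole otic vesicle had been taken, and from E11 to E12 cochlea and vestibular organ were again taken apart, after 20 to 25 minutes in dispase. Those 12 later arrays and the 2 arrays of the E10 otic vesicle serve here as comparison.

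The inner ear grows from the otic vesicle, a closed epithelial sac beside the hindbrain. Sonic hedgehog from the notochord and floor plate patterns its ventral side, from which the cochlear duct extends, and Wnt signals from the dorsal hindbrain pattern its dorsal side, which forms the semicircular canals and their sensory organs. Retinoic acid is made by aldehyde dehydrogenases and degraded by Cyp26 enzymes, so that the places of synthesis and breakdown set where it can act. The neurons of the cochleovestibular ganglion leave the floor of the vesicle at about the stage examined here.

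Values are probe set signals after quantile normalization, on a linear scale whose lowest value is 10, and differences are log2(signal + 16) of cochlea minus vestibular organ with their standard error (SE). That scale understates the change of weak genes. A gene was called higher in 1 part when the limma adjusted p was below 0.05 and the difference was at least 1 log2. Other genes are given by their values. The 4 arrays were not equally far apart. Over the 9352 genes tested, the 2 vestibular arrays correlated at 0.987 and the 2 cochlear arrays at 0.969. Cochlear replicate 1 correlated at 0.971 and 0.969 with the vestibular arrays, as closely as with its own duplicate, while cochlear replicate 2 correlated with them at 0.944 and 0.943. Among the 32 duplicate pairs of the series this correlation ran from 0.947 to 0.991, and it was lower than that of the E10.5 cochlea in 8 groups. As deposited, the median signals were 76.9 and 76.6 in the cochlear arrays and 97.5 and 94.3 in the vestibular arrays, a gap that quantile normalization removes.

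Of 9352 genes, 232 were called (2.48%), 60 of them higher in the cochlea (0.642%) and 172 higher in the vestibular organ (1.84%). In bulk tissue a smaller number of cells that make a transcript and less transcript per cell cannot be told apart. The median difference of all genes was -0.01. On the values as deposited, where that median was -0.31, 536 genes were called and the share higher in the cochlea was 5.22% in place of 25.9%, so the ratio of the 2 directions depends on the scaling. The number of calls also depends on the cochlear duplicates. Without cochlear replicate 1 there were 506 calls, which included 215 of the 232. Without cochlear replicate 2 there were 136, which included 97 of them. All 232 kept their direction in both fits. In each of the 232 both cochlear arrays lay above or below both vestibular arrays, which was also so for 50.8% of all genes (24.1% above and 26.7% below). Among the genes named below, S1pr3, Gsc, Bmp4, Col9a1 and Frzb missed the threshold without cochlear replicate 1. With the spread estimated from the 4 arrays alone, 4 genes were called, 3 of them among the 232. Kcnd2, a potassium channel gene, and Chl1, which encodes a cell adhesion molecule, passed in that fit, each with an adjusted p of 0.0384 from limma. The p-values rest on how far pools from separate litters differed.

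In the genes higher in the vestibular organ, cochlear replicate 1 lay between its duplicate and the vestibular arrays. It exceeded replicate 2 in 141 of these 172 genes (82%), against 51.3% of all genes, with a median gap of 0.50 log2. In the genes higher in the cochlea it exceeded replicate 2 in 21 of 60 (35%). The median distance from the vestibular mean in the vestibular-high genes was -1.11 for replicate 1 and -1.62 for replicate 2. Both cochlear pools lay on the same side of the vestibular arrays, at different distances.

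**Figure D1:**
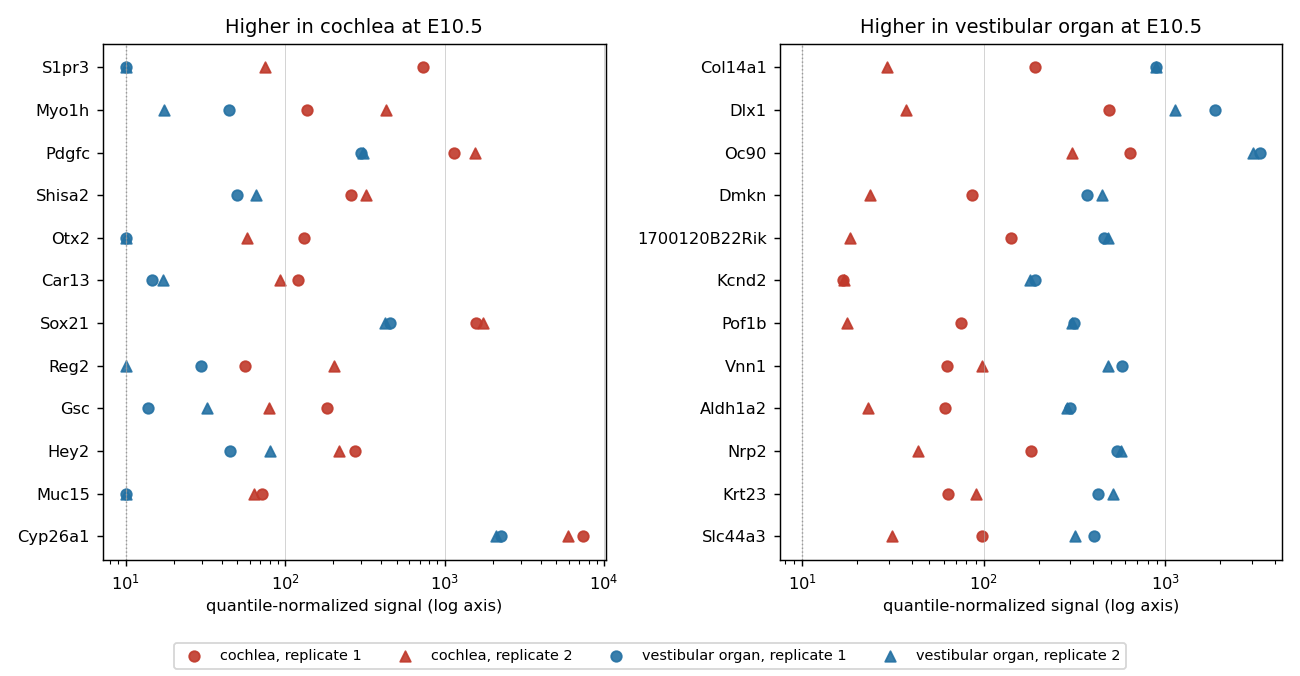
Signals of the 12 genes with the largest difference in each direction among the called genes, 1 point per array, on a log axis of quantile-normalized signal (cochlea red, vestibular organ blue, circles replicate 1, triangles replicate 2). The dotted line is the lowest value, 10, at which both vestibular arrays lie for Otx2; in the right panel replicate 1 of the cochlea often lies nearer the vestibular points, as for Dlx1 with 486 against 37.0 in replicate 2.

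The transcription factors that led the cochlear side were Otx2, Gsc, Hey2 and Sox21. Otx2, a homeobox factor of the ventral vesicle, had signals of 131 and 57.7 in the cochlea and the lowest value, 10, in both vestibular arrays. Its difference of 2.00 (SE 0.24, limma adjusted p 1.62e-07) is a lower bound on this scale. Both arrays of the E10 otic vesicle also lay at 10 for Otx2. Gsc, the homeobox gene goosecoid, gave 184 and 79.3 in the cochlea against 13.8 and 32.6, a difference of 1.86 (SE 0.40, limma adjusted p 0.00189), and was at 10 in both E10 arrays. The cochlear values of both genes lay above the vestibular ones, and replicate 1 was higher than replicate 2 in each. Without cochlear replicate 1 the Gsc difference was 1.33 with an adjusted p of 0.0564 from limma, and without vestibular replicate 1 it was 1.51 with 0.074.

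Sox21, a repressor of the SoxB group, gave 1580 and 1748 in the cochlea against 453 and 422, a difference of 1.89 (SE 0.32, limma adjusted p 0.000109). In the E10 vesicle its signals were 1113 and 1252, between the 2 parts. Among the other 18 measured genes of the ventral otocyst list besides Otx2 and Gsc, Hey2 was higher in the cochlea, while Lmo4, a LIM-only cofactor, and Ngfr, the low-affinity neurotrophin receptor, were higher in the vestibular organ. Lmo4 gave 275 and 257 in the cochlea against 790 and 745, a difference of -1.47 (SE 0.18, limma adjusted p 3.68e-07). In all, 3 of the 20 measured genes of that list were higher in the cochlea and 2 in the vestibular organ. Of all genes, 0.642% and 1.84% were called in these directions. The list had a median of 0.46 against -0.01 for all genes. Several other members of that list were not called. Sox2 had a difference of 0.54 (SE 0.15), Gata3 of 0.58 (SE 0.28), Nr2f1 of 0.87 (SE 0.35), Tbx1 of -0.74 (SE 0.33) and Lfng of -0.06 (SE 0.23).

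On the vestibular side, 6 of the 29 measured genes of the dorsal otocyst list were higher in the vestibular organ and none in the cochlea. Of all genes, 1.84% and 0.642% were called in these directions. The median of this list was -0.36. The 6 genes were Oc90, Tbx3, Gbx2, Hmx2, Meis2 and Bmp4. Tbx3, a T-box repressor, gave 374 and 261 in the cochlea against 1112 and 1169, a difference of -1.81 (SE 0.21, limma adjusted p 1.27e-07). Gbx2, a homeobox gene needed for the dorsal vesicle and its endolymphatic duct, gave 25.1 and 23.9 against 88.7 and 85.0, a difference of -1.34 (SE 0.19, limma adjusted p 5e-06). For both genes the arrays of each part were close together and far from the other part. Hmx2, a homeobox gene of the vestibular anlage, lay at 10 in both cochlear arrays and at 41.2 and 58.1 in the vestibular arrays, a difference of -1.33 (SE 0.27, limma adjusted p 0.00138) that missed the threshold without vestibular replicate 2 (adjusted p 0.0529). Meis2, a cofactor of Hox proteins, gave 102 and 97.4 against 240 and 236.

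The related genes Hmx3, Dlx5 and Dlx6, whose products also pattern the dorsal vesicle, were not called, with differences of 0.59 (SE 0.29), -0.11 (SE 0.23) and 0.31 (SE 0.20). Msx1 and Msx2, targets of BMP signalling, had differences of -0.61 (SE 0.17) and -0.37 (SE 0.22). Dlx1, a homeobox gene outside the list, gave 1870 and 1136 in the vestibular organ against 486 and 37.0 in the cochlea, a difference of -3.18 (SE 0.57, limma adjusted p 0.000237). On the log2 scale the cochlear duplicates of Dlx1 lay farther from each other than replicate 1 lay from either vestibular array. Without cochlear replicate 2 its difference was -1.55 with an adjusted p of 0.157 from limma, and without replicate 1 it was -4.80. Zfp503, a zinc finger repressor, gave 449 and 254 in the cochlea and 1116 in both vestibular arrays, a difference of -1.68 (SE 0.23, limma adjusted p 3.53e-06).

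**Figure D2:**
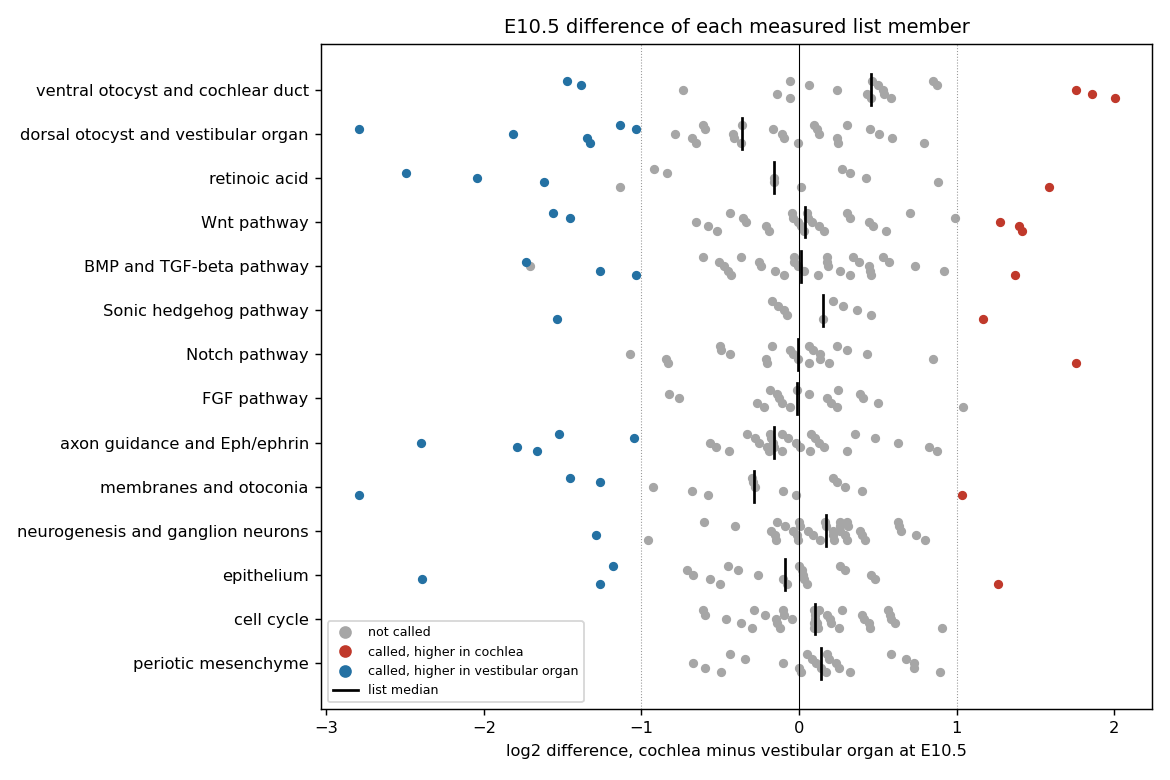
Log2 difference of each measured member (points) of 14 gene lists, cochlea minus vestibular organ at E10.5, with the list median as a black bar; called genes are red (higher in cochlea) or blue (higher in vestibular organ) and dotted lines mark 1 log2. The ventral list has its median at 0.46 and the dorsal list at -0.36. The cell cycle and mesenchyme lists hold no called gene, where 2.48% of all genes were called.

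Of the 14 measured genes of retinoic acid metabolism and response, 4 were called, against 2.48% of all genes. Cyp26a1, which degrades retinoic acid, was higher in the cochlea, and Aldh1a1, Aldh1a2 and Rdh10, which carry out the 2 steps of its synthesis from retinol, were higher in the vestibular organ. Cyp26a1 gave 7341 and 5895 in the cochlea against 2263 and 2095, a difference of 1.59 (SE 0.33, limma adjusted p 0.00154), and the E10 vesicle lay between them at 3689 and 4262. Aldh1a2 gave 61.1 and 23.1 in the cochlea against 297 and 288, a difference of -2.49 (SE 0.47, limma adjusted p 0.000486). Without cochlear replicate 2 the adjusted p of Aldh1a2 was 0.0573 in limma. For Cyp26a1 and Aldh1a2 the vestibular duplicates were nearly equal and the cochlear arrays stood apart from them on opposite sides.

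Aldh1a1 gave 29.6 and 38.1 against 151 and 234, a difference of -2.04 (SE 0.27, limma adjusted p 9.63e-07). Rdh10, the retinol dehydrogenase, gave 68.3 and 40.3 against 191 and 201, a difference of -1.62 (SE 0.22, limma adjusted p 2.23e-06). No other measured gene of the list was called, Rdh11 (-0.84) and Dhrs3 (-0.16), whose products act on retinol or retinal, among them. The third retinaldehyde dehydrogenase, Aldh1a3, had a difference of -0.92 (limma adjusted p 0.0204), the retinoid receptor gene Rxrg one of 0.88 (limma adjusted p 0.000468) and the binding protein gene Crabp1 one of -1.14 (limma adjusted p 0.0959). The receptor genes Rarb and Rarg had differences of -0.16 and 0.02, with weak Rarb signals of 12.9 and 30.2 in the cochlea against 24.2 and 25.5. The list median was -0.16.

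The sequence just before the start of Cyp26a1 is shown because this gene is a known direct target of the acid that its product removes. It is the 250 bases before the start in RefSeq on GRCm38.p6, chr19:37697558-37697807, plus strand, with capitals marking a match to the direct repeat bound by retinoic acid receptors, searched as AGNTCANNNNNAGNTCA on both strands.
Cyp26a1: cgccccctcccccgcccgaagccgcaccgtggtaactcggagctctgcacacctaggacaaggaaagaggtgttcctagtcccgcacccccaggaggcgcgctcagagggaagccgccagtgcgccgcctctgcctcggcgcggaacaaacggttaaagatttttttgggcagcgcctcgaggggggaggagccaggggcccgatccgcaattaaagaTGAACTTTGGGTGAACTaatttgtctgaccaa
The match lies on the opposite strand and ends 16 bases before the start. Of 32851 promoter windows of this length, 65 hold the motif (0.198%), and of the 11 measured retinoic acid genes with a window in that table Cyp26a1 was the 1 that did. The letters searched require A as the first base of each repeat, so repeats with another first base were not counted. A match in this window describes the letters and does not show binding.

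Of the 30 measured Wnt pathway genes, 3 were higher in the cochlea and 2 in the vestibular organ, against 0.642% and 1.84% of all genes. The list had a median of 0.04. The cochlear genes were Fzd7, a Wnt receptor, Rspo2, a secreted protein that strengthens Wnt signalling at the receptor, and Frzb, a secreted Wnt inhibitor that was named after its values were seen. Fzd7 gave 1394 and 1849 against 537 and 651, a difference of 1.42 (SE 0.21, limma adjusted p 1.35e-05). Rspo2 gave 55.2 and 52.4 against 11.1 and 10, a difference of 1.40 (SE 0.19, limma adjusted p 2.52e-06). The Rspo2 signals of the vestibular organ were at or near the lowest value. Frzb gave 253 and 115 against 63.8 and 59.3, a difference of 1.28 (SE 0.34, limma adjusted p 0.0137). That call was lost when cochlear replicate 1 (0.76, adjusted p 0.207), vestibular replicate 1 (adjusted p 0.074) or vestibular replicate 2 (adjusted p 0.102) was left out in limma. With the probe set of largest variance the Frzb difference was 0.69 (limma adjusted p 0.17).

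The 2 Wnt genes higher in the vestibular organ, Nkd1 and Sp5, are both feedback targets of canonical Wnt signalling. Nkd1 gave 72.5 and 58.8 in the cochlea against 218 and 230, a difference of -1.56 (SE 0.35, limma adjusted p 0.00296), and its adjusted p was 0.0753 without cochlear replicate 2. Sp5, a zinc finger factor, gave 88.2 and 55.2 against 216 and 224, a difference of -1.45 (SE 0.21, limma adjusted p 3.99e-06). Axin2, another target gene, had a difference of -0.44 and was not called (limma adjusted p 0.146). The Wnt ligands Wnt4, Wnt5a and Wnt7a had differences of 0.55, -0.36 and 0.44, with none called. Wnt7a signals were weak, at 18.7 and 34.9 in the cochlea against 20.7 and 10. The promoter of Sp5 is shown for the motif bound by TCF and LEF factors, the nuclear partners of beta-catenin, searched as CTTTGATC on both strands and given in capitals in the 250 bases before its start in RefSeq (chr2:70474673-70474922, plus strand, GRCm38.p6).
Sp5: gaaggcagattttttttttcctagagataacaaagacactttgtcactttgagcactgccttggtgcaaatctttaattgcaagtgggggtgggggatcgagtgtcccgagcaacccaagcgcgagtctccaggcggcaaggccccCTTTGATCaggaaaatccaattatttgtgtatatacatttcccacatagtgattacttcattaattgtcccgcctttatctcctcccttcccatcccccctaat
This motif is in 263 of the 32851 windows (0.801%). Of the 17 measured Wnt genes with a window, Sp5 was the 1 that held it, and its last base lies 97 bases before the start.

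In the Sonic hedgehog pathway, 1 of 11 measured genes was higher in each part. Over all genes, 0.642% were called higher in the cochlea and 1.84% higher in the vestibular organ. Ptch1, the receptor and itself a target of the pathway, gave 373 and 338 in the cochlea against 137 and 162, a difference of 1.17 (SE 0.18, limma adjusted p 1.89e-05). Gas1, a co-receptor that hedgehog signalling represses in several tissues, gave 167 and 154 against 543 and 451, a difference of -1.54 (SE 0.27, limma adjusted p 0.000164). The other kept probe sets of Gas1 differed by -1.15 and -0.44 (adjusted p 8.71e-06 and 0.254 from limma over all probe sets). Neither gene's arrays overlapped between the parts. Gli1, the other common target, was not called, with signals of 82.8 and 61.7 against 78.9 and 76.3 and a difference of -0.09 (SE 0.21). Shh itself gave 132 and 76.7 against 117 and 98.4. A second probe set of Ptch1 had a difference of 0.65 with an adjusted p of 0.125 from limma over all probe sets, and on the values as deposited the Ptch1 difference was 0.85, below the minimum.

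Among 34 measured genes of the BMP and TGF-beta pathways, the ligand Bmp6 was higher in the cochlea. The ligands Bmp4 and Tgfb2 and the matrix protein gene Smoc2 were higher in the vestibular organ. These counts stand against 0.642% and 1.84% of all genes called in the 2 directions. Bmp6 gave 634 and 502 in the cochlea against 225 and 194, a difference of 1.37 (SE 0.15, limma adjusted p 9.09e-08). In the E10 vesicle it was 182 and 211, close to the vestibular level. Smoc2 gave 27.7 and 40.8 against 163 and 137, a difference of -1.73 (SE 0.22, limma adjusted p 8.08e-07). Bmp4, which marks the presumptive cristae, gave 112 and 200 against 333 and 315, a difference of -1.03 (SE 0.22, limma adjusted p 0.00183). This call is near the threshold of 1 log2, and the difference was -0.66 without cochlear replicate 1 and -0.99 without vestibular replicate 1. Tgfb2 gave 129 and 52.6 against 243 and 206, and its difference of -1.27 became -0.73 without cochlear replicate 2. Its other kept probe sets differed by -0.45 and 0.12 (adjusted p 0.114 and 0.785 from limma over all probe sets). Bambi, a decoy receptor, had a difference of -1.71 with an adjusted p of 0.0875 from limma, and its vestibular signals were 588 and 285. It was called in the fit on the E10.5 to E12 arrays (adjusted p 0.0307) and on the values as deposited (adjusted p 0.0154). The list median was 0.01.

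Hey2, a repressor induced by Notch in many tissues, was the 1 of 23 measured Notch pathway genes that was called, against 2.48% of all genes. It gave 275 and 216 in the cochlea against 45.3 and 80.5, a difference of 1.76 (SE 0.28, limma adjusted p 3.33e-05). Hey1, its relative, gave 318 in both cochlear arrays against 175 and 164, a difference of 0.85 (SE 0.16, limma adjusted p 0.000477) that is below the minimum of 1 log2. The cochlear signals of both Hey genes lay above the vestibular ones. Jag1, a Notch ligand of the prosensory domain, had a difference of 0.43 (limma adjusted p 0.188), and Notch2 one of -1.07 (SE 0.42, limma adjusted p 0.103). The other kept probe set of Notch2 differed by 0.24 (adjusted p 0.606 from limma over all probe sets). Notch2 was called on the values as deposited, on the E10.5 to E12 arrays and with the replicate block (limma adjusted p 0.0145, 0.000355 and 0.0179). The promoter of Hey2 is shown for the core motif of RBPJ, the factor through which Notch acts on its targets, searched as GTGGGAA on both strands and given in capitals in the 250 bases before its start (chr10:30842784-30843033, minus strand, GRCm38.p6, RefSeq).
Hey2: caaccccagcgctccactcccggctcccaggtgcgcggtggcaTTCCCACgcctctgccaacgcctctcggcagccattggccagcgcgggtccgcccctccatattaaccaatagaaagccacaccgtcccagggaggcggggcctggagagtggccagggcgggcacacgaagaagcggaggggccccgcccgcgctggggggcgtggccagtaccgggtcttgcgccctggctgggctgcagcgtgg
The motif is short and lies in 1779 of the 32851 windows (5.42%). Of the 20 measured Notch genes with a window, Lfng, Hes5 and Hey2 hold it.

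Of 23 measured prosensory and hair cell genes, Hey2 and Myo7a were higher in the cochlea and Smpx in the vestibular organ, with a list median of 0.19. Of all genes 2.48% were called. Myo7a, an unconventional myosin of hair cells, gave 93.1 and 177 in the cochlea against 43.6 and 41.7, a difference of 1.31 (SE 0.29, limma adjusted p 0.00268), and 0.90 without cochlear replicate 2 (adjusted p 0.224). Smpx, a small muscle protein that is also found in the ear, gave 20.5 and 10 in the cochlea against 113 and 151, a difference of -2.25 (SE 0.29, limma adjusted p 8.08e-07). Atoh1, the factor that starts hair cell formation, had a difference of 0.37 (limma adjusted p 0.235). No gene of the FGF list was called among 19 measured, with differences of 1.04 (SE 0.41, limma adjusted p 0.114) for Fgf16, -0.83 (SE 0.21, limma adjusted p 0.00838) for Fgf9 and 0.50 (SE 0.30) for Fgf10.

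Against 2.48% of all genes, 1 of 37 measured genes of neurogenesis and ganglion neurons was called, Gap43, which encodes a growth cone protein. It gave 110 and 51.0 in the cochlea against 217 and 200, a difference of -1.29 (SE 0.34, limma adjusted p 0.0141), and missed the threshold when cochlear replicate 2 (adjusted p 0.449), vestibular replicate 1 (0.108) or vestibular replicate 2 (0.075) was left out in limma. Neurod1, a factor of delaminating neuroblasts, gave 832 and 912 against 590 and 522, a difference of 0.64 (SE 0.22, limma adjusted p 0.0684). Neurog1, which acts before it, gave 70.5 and 91.2 against 97.4 and 76.8, and the arrays overlapped. Isl1 had a difference of 0.80 (SE 0.26, limma adjusted p 0.0537).

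In the list of axon guidance and Eph or ephrin genes, 5 of 33 measured were called on the vestibular side, against 1.84% of all genes. None was called on the cochlear side, and the list median was -0.16. The 5 are semaphorin, Slit and netrin pathway genes, and no Eph or ephrin gene was called. Nrp2, a receptor of class 3 semaphorins, gave 181 and 43.5 in the cochlea against 540 and 570, a difference of -2.40 (SE 0.34, limma adjusted p 4.24e-06), and -1.53 without cochlear replicate 2. Slit3, a secreted ligand of Robo receptors, gave 116 and 98.8 against 388 and 435, a difference of -1.79 (SE 0.18, limma adjusted p 1.38e-08). The 2 cochlear values of Slit3 were close, whereas those of Nrp2 differed widely. Sema3a gave 32.8 and 58.4 against 145 and 210, a difference of -1.66 (SE 0.23, limma adjusted p 2.97e-06). Sema3b, a semaphorin ligand like Sema3a, gave 358 and 126 against 805 and 518, and its difference of -1.52 became -0.83 without cochlear replicate 2 (adjusted p 0.402) and -1.21 without vestibular replicate 1 (adjusted p 0.109). Unc5c, a netrin receptor named after its values were seen, had a difference of -1.05 (limma adjusted p 0.00191), with an adjusted p of 0.128 without cochlear replicate 2 and 0.0655 without vestibular replicate 2. Efnb2, an ephrin ligand, had the largest positive difference of the list, 0.87, below the minimum.

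Genes of acellular membranes and otoconia were called in both directions. Oc90, the main protein of the otoconial matrix, gave 642 and 306 in the cochlea against 3305 and 3039, a difference of -2.79 (SE 0.23, limma adjusted p 1.3e-10), and the E10 vesicle lay between at 1287 and 1269. Of 16 measured genes of the list, Col11a1 and Sparc were also higher in the vestibular organ and Col9a1 in the cochlea. The shares of all genes called in these directions were 1.84% and 0.642%. Col11a1, a fibrillar collagen chain, gave 130 and 189 against 398 and 529, and Col9a1, a chain of a collagen that coats such fibrils, gave 1262 and 1200.0 against 599 and 588. The differences were -1.46 (SE 0.21, limma adjusted p 4.95e-06) and 1.03 (SE 0.20, limma adjusted p 0.000591). The Col9a1 difference was 0.997 without cochlear replicate 1, 0.72 on the values as deposited and 0.66 (adjusted p 0.152) with the probe set of largest variance, while that of Col11a1 was -0.99 with that probe set. Sparc, a matrix glycoprotein, had a difference of -1.26, and -0.85 without cochlear replicate 2. A second probe set of Sparc differed by -0.74 (adjusted p 0.171 from limma over all probe sets). Col14a1, a fibril-associated collagen outside the list, gave 192 and 29.3 against 886 and 884, a difference of -3.22 (SE 0.44, limma adjusted p 2.52e-06), and -2.12 without cochlear replicate 2. A second probe set of Col14a1 had a difference of -0.06 (SE 0.17), so the result holds for 1 of the 2 kept probe sets.

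Epithelial genes were called in both directions, 1 of 22 measured higher in the cochlea and 3 higher in the vestibular organ. Of all genes, 0.642% and 1.84% were called in these directions. Krt23, a type I keratin, gave 63.5 and 90.6 in the cochlea against 424 and 514, a difference of -2.39 (SE 0.25, limma adjusted p 2.53e-08). Cldn4, a tight junction protein, gave 989 and 980.3 against 2749 and 2070, a difference of -1.26 (SE 0.34, limma adjusted p 0.0147) whose adjusted p was 0.132 without cochlear replicate 2 and 0.171 without vestibular replicate 1. Ovol2, a zinc finger factor of epithelia, gave 125 and 315 against 76.7 and 71.0, and its difference of 1.26 became 0.65 without cochlear replicate 2 and 0.96 on the values as deposited, and it had an adjusted p of 0.0548 without vestibular replicate 2. Esrp2, an epithelial splicing factor, had a difference of -1.18 that missed the threshold without any 1 of 3 arrays. It was -0.71 without cochlear replicate 2, and -1.20 and -1.165 without vestibular replicate 1 and 2. A second probe set of Esrp2 differed by -0.27 (adjusted p 0.554 from limma over all probe sets). Of 16 cadherin genes, Cdh13 was called, at -1.47, and its adjusted p was 0.0833 without cochlear replicate 2.

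The other genes with the largest differences have varied roles. Pdgfc, a growth factor ligand, gave 1152 and 1552 in the cochlea against 298 and 310, a difference of 2.08 (SE 0.35, limma adjusted p 8.84e-05). Shisa2, which holds Wnt and FGF receptors back in the endoplasmic reticulum, gave 259 and 324 against 49.7 and 65.7, a difference of 2.06 (SE 0.25, limma adjusted p 2.25e-07). A second probe set of each gene differed in the same direction, by 1.51 and 1.65. Car13, a cytosolic carbonic anhydrase, gave 121 and 93.2 against 14.8 and 17.1, a difference of 1.94 (SE 0.22, limma adjusted p 1.22e-07), and Muc15, a membrane mucin, gave 71.6 and 63.9 against 10 in both vestibular arrays. All 4 genes were separated by wide margins in both pairs of arrays. S1pr3, a receptor for sphingosine 1-phosphate, had the largest difference, 3.33 (SE 0.99, limma adjusted p 0.0302), from signals of 730 and 75.1 against 10 and 10. It lost its call without cochlear replicate 1 (1.81, adjusted p 0.321) and without vestibular replicate 1 or 2 (adjusted p 0.144 and 0.139). Myo1h and Reg2 likewise depended on single arrays, with differences of 2.55 and 1.87 that were 1.78 (adjusted p 0.206) and 1.06 (adjusted p 0.661) without cochlear replicate 2, 2.12 (adjusted p 0.0794) and 1.46 (adjusted p 0.313) without vestibular replicate 2, and for Reg2 2.28 (adjusted p 0.073) without vestibular replicate 1.

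On the vestibular side, Kcnd2, a voltage-gated potassium channel subunit, gave 191 and 180 against 16.8 and 17.0 in the cochlea, a difference of -2.62 (SE 0.35, limma adjusted p 1.61e-06). Vnn1, a pantetheinase, gave 579 and 481 against 62.5 and 97.5, a difference of -2.53 (SE 0.30, limma adjusted p 1.95e-07). These 2 genes were among the large differences in which the cochlear duplicates lay close together. Dmkn, 1700120B22Rik and Slc44a3 had differences of -2.73, -2.73 and -2.35, with cochlear signals of 86.5 and 23.6, of 141 and 18.3 and of 97.8 and 31.3, and that of 1700120B22Rik was -1.63 without cochlear replicate 2. Pof1b, at -2.56, missed the threshold without cochlear replicate 2 (adjusted p 0.504), vestibular replicate 1 (0.162) or vestibular replicate 2 (0.153) in limma. Of the 232 called genes, 73 had other kept probe sets, 108 in all. Of these, 93 differed in the same direction, 31 were called in it and 0 were called in the opposite one.

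Markers of the surrounding tissues were measured beside these results. Otog, which encodes otogelin of the acellular membranes and marks inner ear epithelium, was present in all 4 arrays, at 2149 and 1772 in the cochlea and 2574 and 1707 in the vestibular organ. None of 23 periotic mesenchyme, 12 hindbrain, 7 red blood cell, 7 macrophage, 9 endothelial, 10 neural crest or 10 epidermal genes was called. With 2.48% of all genes called, lists of this size would hold few calls in any case. The list medians ran from -0.02 for endothelial to 0.63 for red blood cell genes, against -0.01 for all genes. Cochlear replicate 1 had the highest summed signal of several of these lists. Mesenchymal genes summed to 3380 and 1960 in the cochlea and 2545 and 2114 in the vestibular organ, hindbrain genes to 1893 and 989 against 1034 and 703, red blood cell genes to 7505 and 4592 against 3834 and 3116, and macrophage genes to 1251 and 843 against 970 and 805. Epidermal genes were instead highest in cochlear replicate 2, with 1607 against 1021 in replicate 1 and 1246 and 1214 in the vestibular arrays. Of the 23 mesenchymal genes 1, Meox2, and of the 12 hindbrain genes 1, Egr2, lay at 10 in all 4 arrays, and the collagen gene Col1a1 was between 10 and 19.5. Other members were present: the mesenchymal collagen gene Col3a1 gave 287 and 140 in the cochlea against 95.5 and 107, a difference of 0.89 (limma adjusted p 0.0359) below the minimum, and the hindbrain gene Zic1 gave 1043 and 400.1 against 440 and 274. Col3a1, Twist1, Postn and Foxd1 had the largest absolute differences of the 23 mesenchymal genes. Without cochlear replicate 2 their differences were 1.37, 1.30, 1.16 and 1.54, and without cochlear replicate 1 they were 0.415, 0.15, 0.29 and -0.19. The median of the mesenchymal list was 0.225 without replicate 2 and -0.067 without replicate 1. The part of these tissues in the differences between the parts was not tested. None of 35 cell cycle genes, 13 genes of cell cycle exit, 12 Hox genes or 17 glycolytic and hypoxia genes was called. These counts too stand against 2.48% of all genes. Cdkn1a, a cell cycle inhibitor gene, gave 467 and 338 in the cochlea against 873 and 839, a difference of -1.08 (limma adjusted p 0.0509). It was called on the values as deposited (adjusted p 0.0029) and on the E10.5 to E12 arrays (adjusted p 0.00441). The filter of 16 arrays, array weights and the replicate block also gave a call (adjusted p 0.0467, 0.0385 and 0.0132). A second probe set of Cdkn1a differed by -1.50 (adjusted p 0.000992 from limma over all probe sets). Without cochlear replicate 2 the difference was -0.85. Pfkl, a glycolytic enzyme gene, differed by -1.06 (limma adjusted p 0.0799). It was called on the values as deposited, on the E10.5 to E12 arrays and with the replicate block (adjusted p 0.00909, 0.00295 and 0.0167). Otx2, Hey2, Cyp26a1, Oc90, Tbx3 and Gbx2 kept their calls without either cochlear array.

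The level before the division was read from the E10 otic vesicle, as a description. Of the 60 genes higher in the cochlea, the mean E10 level lay below both parts in 34, between them in 25 and above both in 1. Their median E10 level was 1.34 log2 below the cochlea and 0.04 below the vestibular organ. Of the 172 genes higher in the vestibular organ it lay between the parts in 144, above both in 27 and below both in 1, with a median 0.97 above the cochlea and 0.36 below the vestibular organ. Gsc is an example of an E10 level below both parts, and Oc90, Tbx3 and Nrp2 of one between them. For Bmp6 the E10 mean was below both parts, but its E10 arrays overlapped the vestibular ones. Krt23 lay above both parts, with 840 and 705 in the E10 vesicle.

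**Figure D3:**
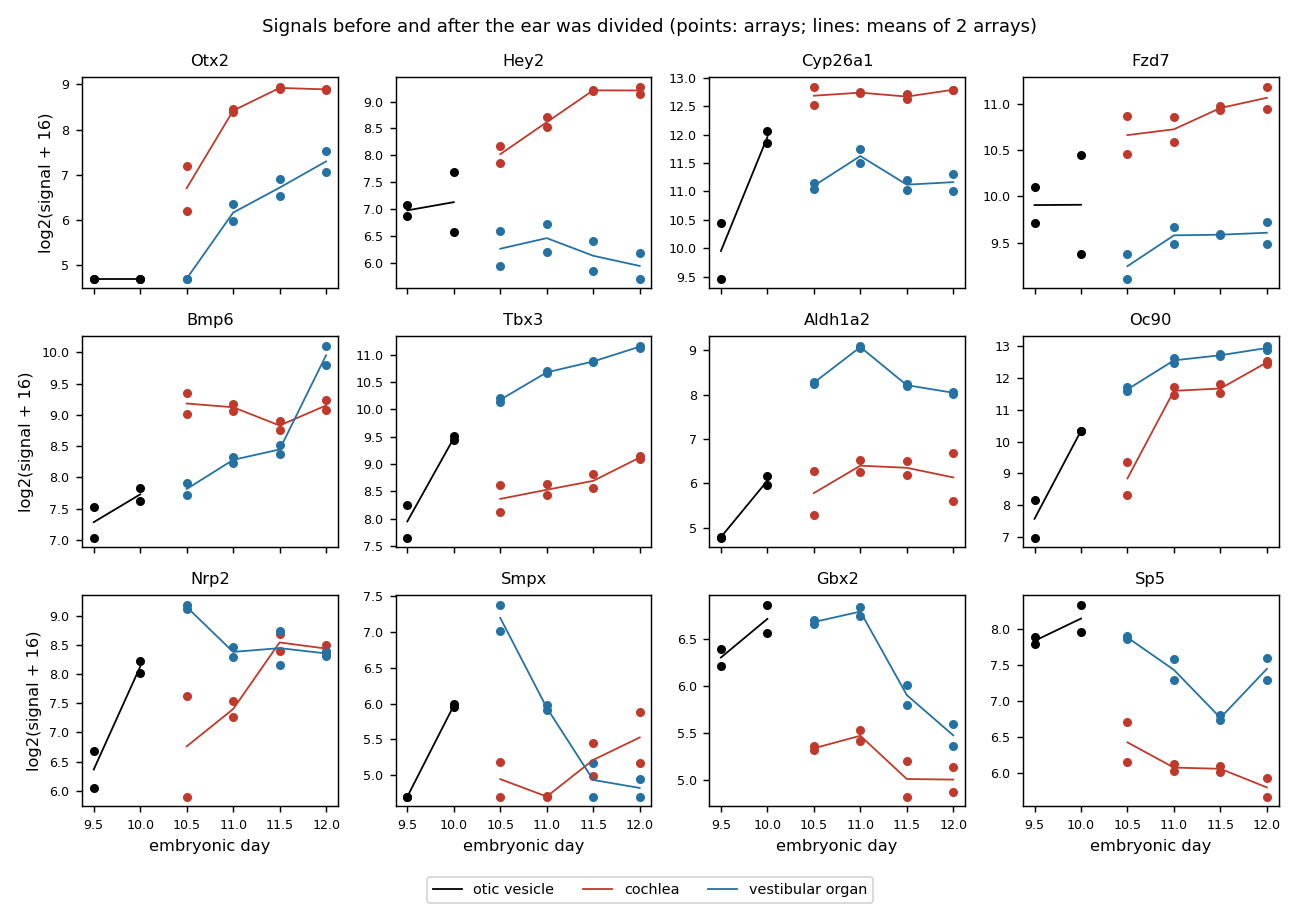
Signal as log2(signal + 16) of 12 genes from E9.5 to E12, with 1 point per array and lines through the means of 2 arrays (otic vesicle black, cochlea red, vestibular organ blue). The lines of Otx2, Hey2 and Tbx3 stay apart through E12, and those of Oc90, Nrp2 and Smpx lie closer together after E10.5.

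The 12 arrays of E11, E11.5 and E12 were not used to find the E10.5 differences, although they share in the estimate of the spread. Of the 60 genes higher in the cochlea at E10.5, 58, 57 and 57 differed in the same direction at E11, E11.5 and E12, where 47.5%, 48.1% and 49.1% of all genes were above 0. Those called again numbered 21, 19 and 17, against 0.513%, 0.727% and 0.77% of all genes called in this direction, and 14 were called at all 3 stages. Of the 172 genes higher in the vestibular organ, 170, 157 and 154 differed in the same direction and 46, 29 and 42 were called again, against 0.802%, 0.791% and 1.21% of all genes. In this group 20 were called at all 3 stages. Median differences went from 1.29 to 0.84, 0.72 and 0.78 on the cochlear side and from -1.29 to -0.80, -0.50 and -0.59 on the vestibular side; the genes had been selected by their size at E10.5.

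Single genes followed different courses. Otx2 gave 336 and 317 in the cochlea at E11 and 452 and 464 at E12, and 47.2 and 65.2 and then 168 and 118 in the vestibular organ. Its difference was 2.00 at E10.5 and 2.02 on average later. Hey2 gave 604 and 547 in the cochlea at E12, against 56.6 and 36.3 in the vestibular organ. Tbx3 in the vestibular organ was 2278 and 2226 at E12, against 548 and 531 in the cochlea. For these 3 genes, and for Cyp26a1 with 7077 in both cochlear arrays at E12 against 2529 and 2055, the arrays of the parts did not overlap at any stage shown. Gsc in the vestibular organ was already 168 and 219 at E11, against 443 and 247 in the cochlea.

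**Figure D4:**
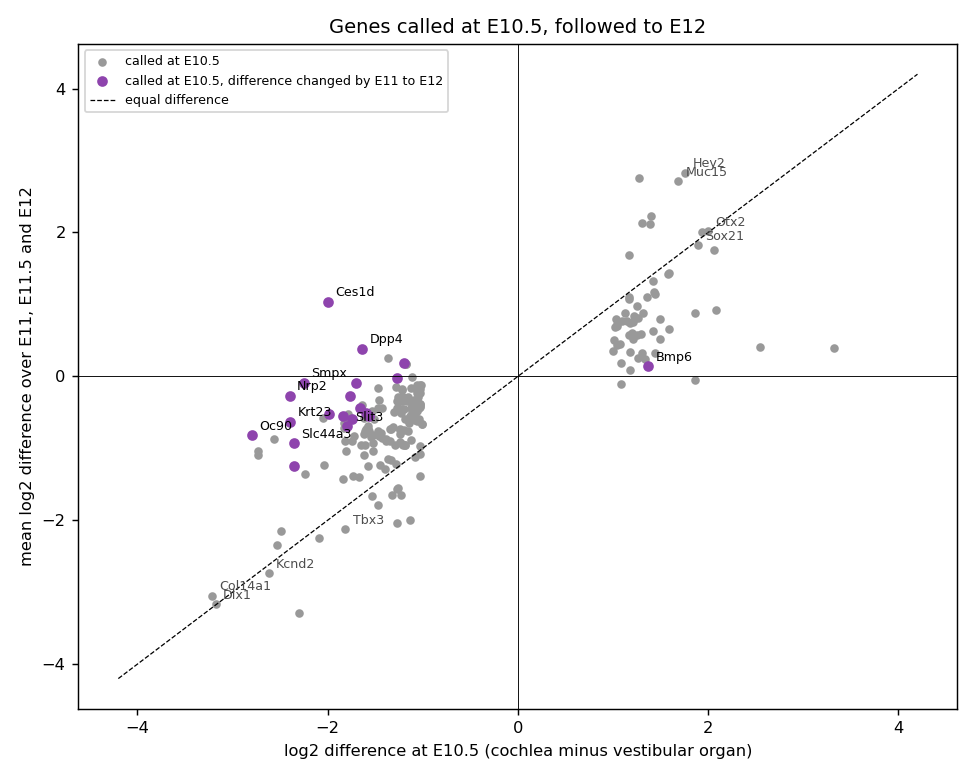
Each of the 232 genes called at E10.5 by its log2 difference at E10.5 (horizontal) and its mean difference over E11, E11.5 and E12 (vertical), cochlea minus vestibular organ; the dashed line marks equal differences. Purple points are the 20 called genes whose later difference was itself called different from that at E10.5, among them Oc90, Nrp2, Smpx and Bmp6.

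The change of the difference after E10.5 was tested as a contrast of its own, the E10.5 difference minus the mean of the 3 later ones. It was called for 40 of 9352 genes (0.428%), 7 above 0 and 33 below, and 20 of the 40 were called at E10.5, 19 of them higher in the vestibular organ. Oc90 gave 642 and 306 in the cochlea at E10.5, 2813 and 3354 at E11 and 5564 and 5860 at E12, when the vestibular organ gave 7438 and 8207. Its difference changed by -1.97 (SE 0.27, limma adjusted p 9.93e-06), from -2.79 to -0.82. Nrp2 had a difference of -2.40 at E10.5 and -0.27 later, a change of -2.13 (SE 0.39, limma adjusted p 0.00183). At E12 its signals were 316 and 349 in the cochlea and 320.4 and 304 in the vestibular organ. Both genes differed less between the parts after E10.5, with higher cochlear signals and, for Nrp2, lower vestibular ones than at E10.5.

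Smpx in the vestibular organ gave 113 and 151 at E10.5, 44.1 and 46.9 at E11 and 14.8 and 10 at E12, with a change of difference of -2.17 (SE 0.34, limma adjusted p 0.000113). Bmp6 was the 1 gene called higher in the cochlea whose difference changed, by 1.23 (SE 0.18, limma adjusted p 3.36e-05), and at E12 its vestibular signals of 876 and 1085 exceeded the cochlear 584 and 521. Slit3 and Sema3a, the guidance ligands, changed by -1.10 (SE 0.21, limma adjusted p 0.00287) and -1.22 (SE 0.27, limma adjusted p 0.0156). Ces1d, a carboxylesterase named after its values were seen, was among 3 of the 20 genes called both at E10.5 and for the change whose mean later difference had the opposite sign, with -1.995 at E10.5 and 1.04 later. Pcdh20, a protocadherin, differed more between the parts later on. It gave 15.2 and 18.0 in the cochlea against 47.3 and 42.8 at E10.5, and 33.8 and 28.0 against 555 and 707 at E12, a change of 1.95 (SE 0.32, limma adjusted p 0.000274). Neurod1 had a difference of 0.64 at E10.5 and -0.45 later (limma adjusted p 0.0313 for the change). Dispase time changed together with the stage, and the arrays of E11 held the largest share of values at the lowest signal in the series (up to 12.04%), so stage and dissection cannot be told apart in this contrast. The number of such genes was 110 without cochlear replicate 1 and 20 without vestibular replicate 2.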

How the data were processed

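RNA was measured on Affymetrix arrays. The deposited values are probe set intensities. Per the submitters' processing notes the authors used MAS5, whose version and scaling target are not stated in what was read here. Each array holds 22626 probe sets with a lowest value of 10, and 20380 carry 1 gene symbol. All 64 arrays were quantile normalized and transformed as log2(signal + 16). Probe sets at or above the array median on at least 2 arrays were kept, and the one with the highest mean represented each of 9352 genes. A model with 1 coefficient for each of 32 groups was fitted to all arrays in limma 3.58.1 (R 4.3.3), with eBayes following the mean signal (32 residual degrees of freedom), and p-values were adjusted by Benjamini-Hochberg over all genes. The script was tested on simulated data. With 2 arrays per group, their number limits precision.

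Named genes are the 12 largest differences in each direction among called genes whose arrays do not overlap, up to 4 members with the largest difference of each of 28 gene lists, and a panel of 24 inner ear genes, 20 of them measured. The members and lists were chosen with earlier results of these data known. Promoters come from RefSeq. Alternatives were other pseudocounts (1 and 64), filters, scaling, probe set choice, subsets of arrays, array weights, a replicate block and leaving out each array.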

Additional observations from a re-analysis of the deposited data

Results flagged for a closer look

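For 10 named genes the difference between cochlea and vestibular organ at E10.5 was itself different from the mean difference at E11 to E12 by limma's contrast of the 2. Values are the E10.5 difference minus the later one in log2. Among genes higher in the vestibular organ at E10.5 the change was -2.17 for Smpx, -2.13 for Nrp2, -1.97 for Oc90, -1.76 for Krt23, -1.42 for Slc44a3, -1.22 for Sema3a and -1.10 for Slit3. For Bmp6, higher in the cochlea at E10.5, it was 1.23. Pcdh20 and Neurod1, not called at E10.5, changed by 1.95 and 1.08. The part of the longer dispase time from E11 on was not tested.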

How the results depend on the processing

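The 232 calls became 135 with a pseudocount of 64 (34 higher in the cochlea, 101 in the vestibular organ), 536 on values as deposited (28 and 508), 354 with every probe set tested alone (114 higher in the cochlea), 745 by adjusted p alone (221 and 524) and 4 with the E10.5 arrays alone (0 and 4). At an unadjusted p under 0.05 in limma 2098 genes passed in the full model. Leaving out 1 array gave 136 to 506 calls, 46 to 142 in the cochlear direction and 87 to 364 in the vestibular direction. The main fit did not pair arrays by replicate number. Deviations from the group means of cochlear and vestibular arrays correlated at 0.032 at E10.5 and at -0.013, 0.187 and 0.139 at E11, E11.5 and E12. These values cannot show whether pools of equal number came from the same embryos. With a replicate block within stage 269 genes were called, 231 of them among the 232. The 40 genes whose difference changed after E10.5 became 63 with every probe set alone, 64 with the replicate block and 20 to 110 without 1 array. That contrast was not run on the E10.5 arrays alone. The block ended the call of Pof1b among named genes and added calls for 8, of which Bambi, Notch2 and Trp63 are examples. The pseudocount of 64 ended the calls of 13 named genes, among them Bmp4, Gbx2, Hmx2 and Ptch1, each with the same direction. Where 1 array of a group was left out, the other was assumed to vary like the other groups. Of the 134 named genes, 14 that were not called changed sign under some setting. The value was -0.019 for Hoxb3, -0.042 for Ccn1, -0.067 for Hoxb4 and -0.173 for Dnajb1 on values as deposited, and 0.03 for Hoxa3 and 0.464 for Rrm1 with the probe set of largest variance. Over the fits without 1 array the difference ran through 0 for 12 of them, with ranges of -0.158 to 0.044 for Lfng, -0.245 to 0.063 for Neurog1, -0.267 to 0.078 for Gli1, -1.95 to 0.027 for Perp, -0.275 to 1.51 for Tfap2a, -0.192 to 1.54 for Foxd1, -0.037 to 1.3 for Hba-x, -0.18 to 1.6 for Mrc1, -0.107 to 0.373 for Hoxb3, -0.152 to 0.411 for Hoxb4, -0.043 to 0.492 for Ccn1 and -0.094 to 0.469 for Dnajb1. The 232 calls kept their direction except 2 with the probe set of largest variance. Causes of these shifts were not tested.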

Other observations

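Some called genes outside the lists, picked here after their values were seen, belong to matrix, adhesion and hormone metabolism. Fibronectin (Fn1) gave 1008 and 1325 in the cochlea against 2772 and 2671 in the vestibular organ, a difference of -1.22 (SE 0.17, limma adjusted p 2.96e-06). Itgb6, an integrin subunit whose product can bind fibronectin, differed in the same direction by -1.64 (SE 0.30, limma adjusted p 0.000258), with signals of 36.9 and 16.8 against 112 and 117. Ptn, the secreted growth factor pleiotrophin, gave 800.4 and 451 against 3063 and 2752, and Chl1, a cell adhesion molecule, lay at 10 in both cochlear arrays and at 122 and 112 in the vestibular arrays. On the cochlear side, Cnmd, which encodes chondromodulin, gave 3610 and 3393 against 1423 and 1154, and Hsd11b2, a glucocorticoid-inactivating enzyme, gave 1927 and 1515 against 711 and 549. These 6 genes kept their calls without each of the 4 arrays in turn.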
